A study of Mus musculus with 31 samples.

Results

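The mitochondrial ribosomal proteins were examined as a gene group in mouse Ba/F3 cells that express either wild-type (WT) human RPL10 or its R98S mutant. Members were every gene symbol of both expression tables made of Mrpl or Mrps, a number and at most 1 letter, without pseudogenes, and they came to 77 of 41255 symbols. By their symbols 48 belong to the large (39S, Mrpl) and 29 to the small (28S, Mrps) mitochondrial subunit. Ba/F3 is an interleukin-3 dependent mouse lymphoid line. In both groups the endogenous Rpl10 was knocked down with an shRNA and a human RPL10 cDNA was delivered by a retroviral vector, so WT cells carry the knockdown and the human transgene too, and only the R98S residue is meant to differ. Each genotype was represented by 3 clones grown from single cell colonies (R98S clones 11, 13 and 35, WT clones 28, 29 and 36), each sequenced in up to 3 replicates, which the labels number 1 to 3 without saying what the number marks. RNA on at least 2 ribosomes (polysomal RNA) and total mRNA were sequenced: total mRNA comprised 9 R98S and 8 WT libraries, polysomal RNA 8 R98S and 6 WT libraries, and 14 pairs (8 R98S, 6 WT) of a total and a polysomal library shared their clone and replicate number. Libraries of 1 clone share their founder cell, so the p-values measure the spread between libraries more than that between independent clones.

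Mitochondria translate their own small set of mRNAs, all for subunits of the respiratory chain and ATP synthase, on a dedicated ribosome. All its proteins are encoded in the nucleus, translated by cytosolic ribosomes and imported, while its RNA comes from the mitochondrial genome, so the mRNAs described here are clients of the ribosome that carries RPL10. Some members have counterparts in bacterial ribosomes and others occur only in mitochondria. Subunits are given as the symbols name them, although the MRPS18A and MRPS30 proteins have been located in the large subunit and MRPS36 has been assigned to the 2-oxoglutarate dehydrogenase complex.

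Libraries held between 8831180 and 22059792 reads assigned to genes. Mouse Rpl10, knocked down in both groups, was uneven between libraries: it had 901 to 2984 normalized reads in R98S total mRNA (median 1222) and 620 to 5715 in WT (median 1352), and medians of 1117 and 2719 in polysomal RNA. Of 12 markers of the labelled cell, 6 had a mean of at least 10 normalized reads, namely Ptprc, Il3ra, Csf2rb, Csf2rb2, Cd79a and Cd79b, while the other 6, Kit and Pax5 among them, were below it. Their summed total mRNA was 110175 to 222357 in R98S and 56843 to 102239 in WT, most of it from Csf2rb and Csf2rb2, which rose with Cd79b, whereas Ptprc fell (-0.48, adjusted p = 0.0646 by limma) and Cd79a was not called. The sum of 11 markers of other cells was 2059 to 6296 in R98S and 5727 to 9824 in WT total mRNA. Of 7 that passed the filter 4 were lower in R98S cells by limma: Hba-a1 (-3.41, adjusted p = 0.000484), Cd3g (-3.06, 0.00887), Lyz2 (-2.66, 0.0132) and Emr1 (-2.37, 0.00152). Pecam1 and Emr1 made up most of the sum, with means of 2802 and 1232 normalized reads in R98S and 2790 and 4497 in WT, and Lck had a log2 fold change of 0.80 and was not called (adjusted p = 0.1001). The part of these differences in the results below was not tested. In a bulk culture, fewer cells that express a gene and less of its RNA per cell cannot be told apart. The study left out 1 WT total mRNA library (clone 36, number 1) because it grouped with R98S libraries in a principal component analysis, and it is not analysed here.

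All members but 1 passed the filter of a mean of 10 normalized reads in both fractions. The exception was Mrpl53, listed at 0 to 4.37 normalized reads in the total mRNA libraries. Every stretch of 50 bases in its transcript is found in the overlapping gene model Gm42688 too, so these values do not show whether it is expressed. The 76 others comprised 47 large and 29 small subunit members. Per kilobase of the principal transcript, the members of the large subunit had a median of 485 normalized reads in WT total mRNA and those of the small subunit 301, against 205 over 11015 genes and 21220 over 78 cytosolic ribosomal proteins. Among members Mrpl52 was highest, at 2484 ± 533 normalized reads per kb (SD, n = 8), followed by Mrps21 at 1834 ± 316, Mrpl42 at 1418 ± 464 and Mrpl33, the counterpart of bacterial L33, at 1311 ± 216. At the other end of the large subunit stood Mrpl48 at 96.2 ± 11.2 and Mrpl35 at 87.6 ± 15.7, and of the small subunit Mrps31 at 111 ± 23.9, Mrps25 at 109 ± 18.7 and Mrps34 at 87.6 ± 34.5. Of the exon bases of Mrps25, 69.8% lie opposite Nr2c2, and 30.3% of the stretches of 50 bases of Mrpl33 occur in Gm43809. Neighbours in this order mostly overlapped in their library ranges. These levels rest on annotated transcript lengths, which may differ from the transcripts in these cells.

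**Figure D1:**
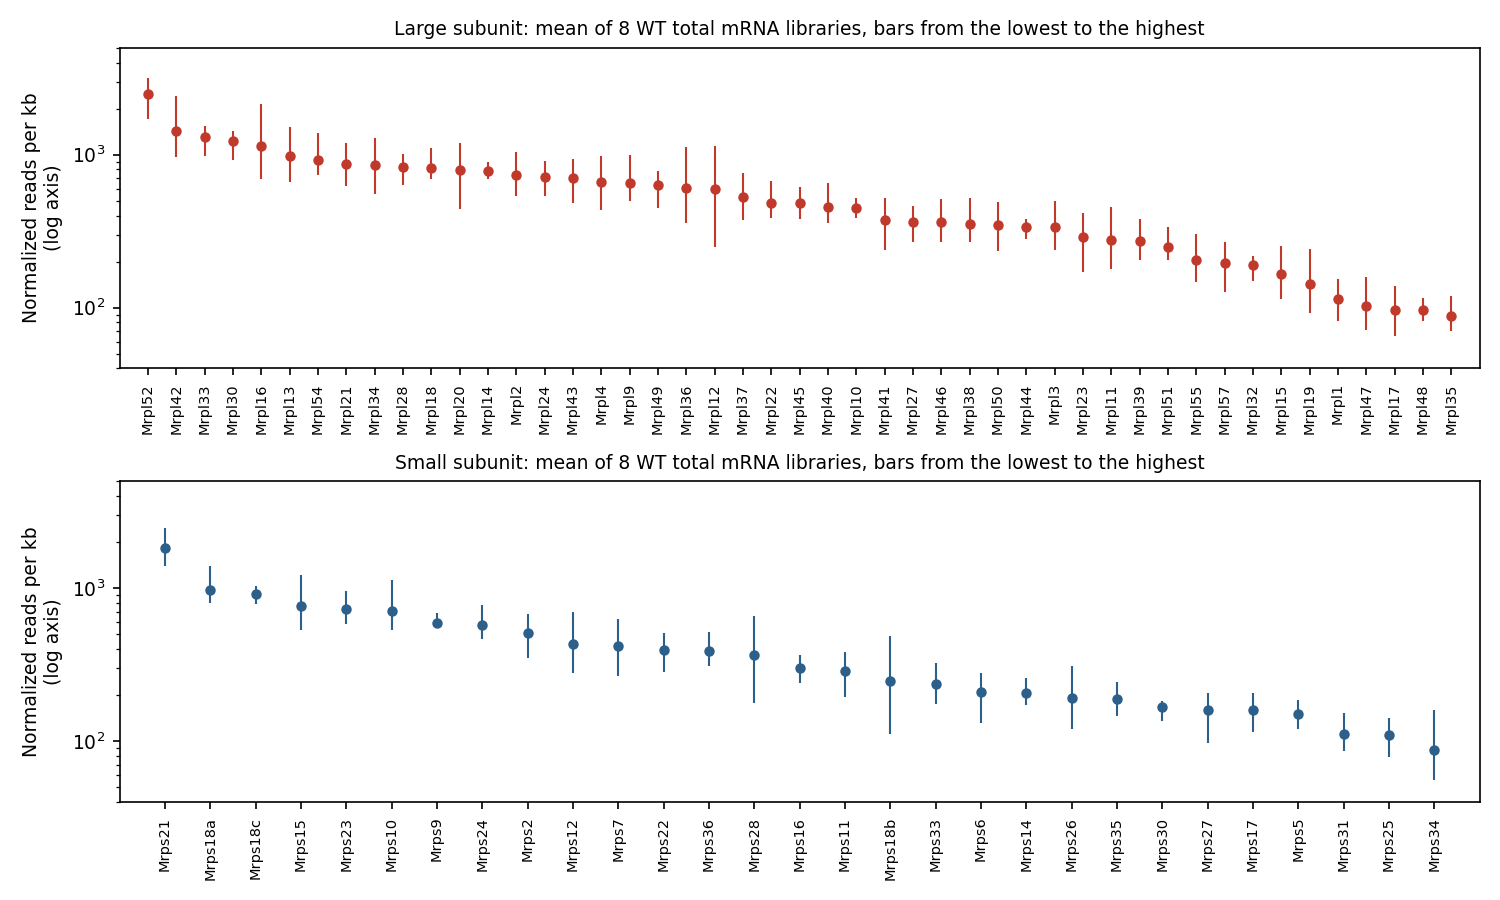
Level of each tested member in WT total mRNA, in normalized reads per kilobase of transcript on a log axis, as the mean of 8 libraries with bars from the lowest to the highest library; members are in order of their mean. Mrpl52 and Mrps21 head the subunits with 2484 and 1834, while Mrpl35 and Mrps34 close them, both near 87.6.

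The 3 paralogues related to bacterial S18 were expressed together. In WT total mRNA Mrps18a had 966 ± 214 normalized reads per kb (SD, n = 8), Mrps18c 914 ± 82.7 and Mrps18b 246 ± 121, so that Mrps18b, for which 30.5% of exon bases also lie in an antisense gene model and 30.9% of stretches of 50 bases in Gm13552, was lowest and its highest library (485) lay below the lowest of both others (799 and 790). Of the exon bases of Mrps18c, 23.2% lie in Gm43511 on the same strand. The log2 fold changes in total mRNA, R98S over WT, were -0.10, 0.47 and 0.03 for Mrps18a, Mrps18b and Mrps18c, and none passed the test (limma on log2 values, Benjamini-Hochberg adjusted p = 0.637, 0.221 and 0.855). Mrpl12, the stalk protein of the large subunit that also binds the mitochondrial RNA polymerase, had a log2 fold change of 0.30 ± 0.24 (SE; adjusted p = 0.38).

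The first comparison asks whether the mRNA levels of these genes differ between R98S and WT cells. In total mRNA 12 members were higher and 2 lower in R98S cells at an adjusted p under 0.1, the threshold the study used. Of the large subunit 9 were higher (19.1%) and 2 lower (4.26%), and of the small subunit 3 were higher (10.3%) and none lower. Among all 11133 genes tested, 14.5% were higher and 15.8% lower, so the share of members that rose was near the background and the share that fell was below it. The log2 fold changes had a median of 0.16 in the large and 0.10 in the small subunit, against 0.00 over all genes, and 53 of the 76 were above 0. They ranged from -0.54 to 0.62, so that no member changed as much as 2-fold.

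**Figure D2:**
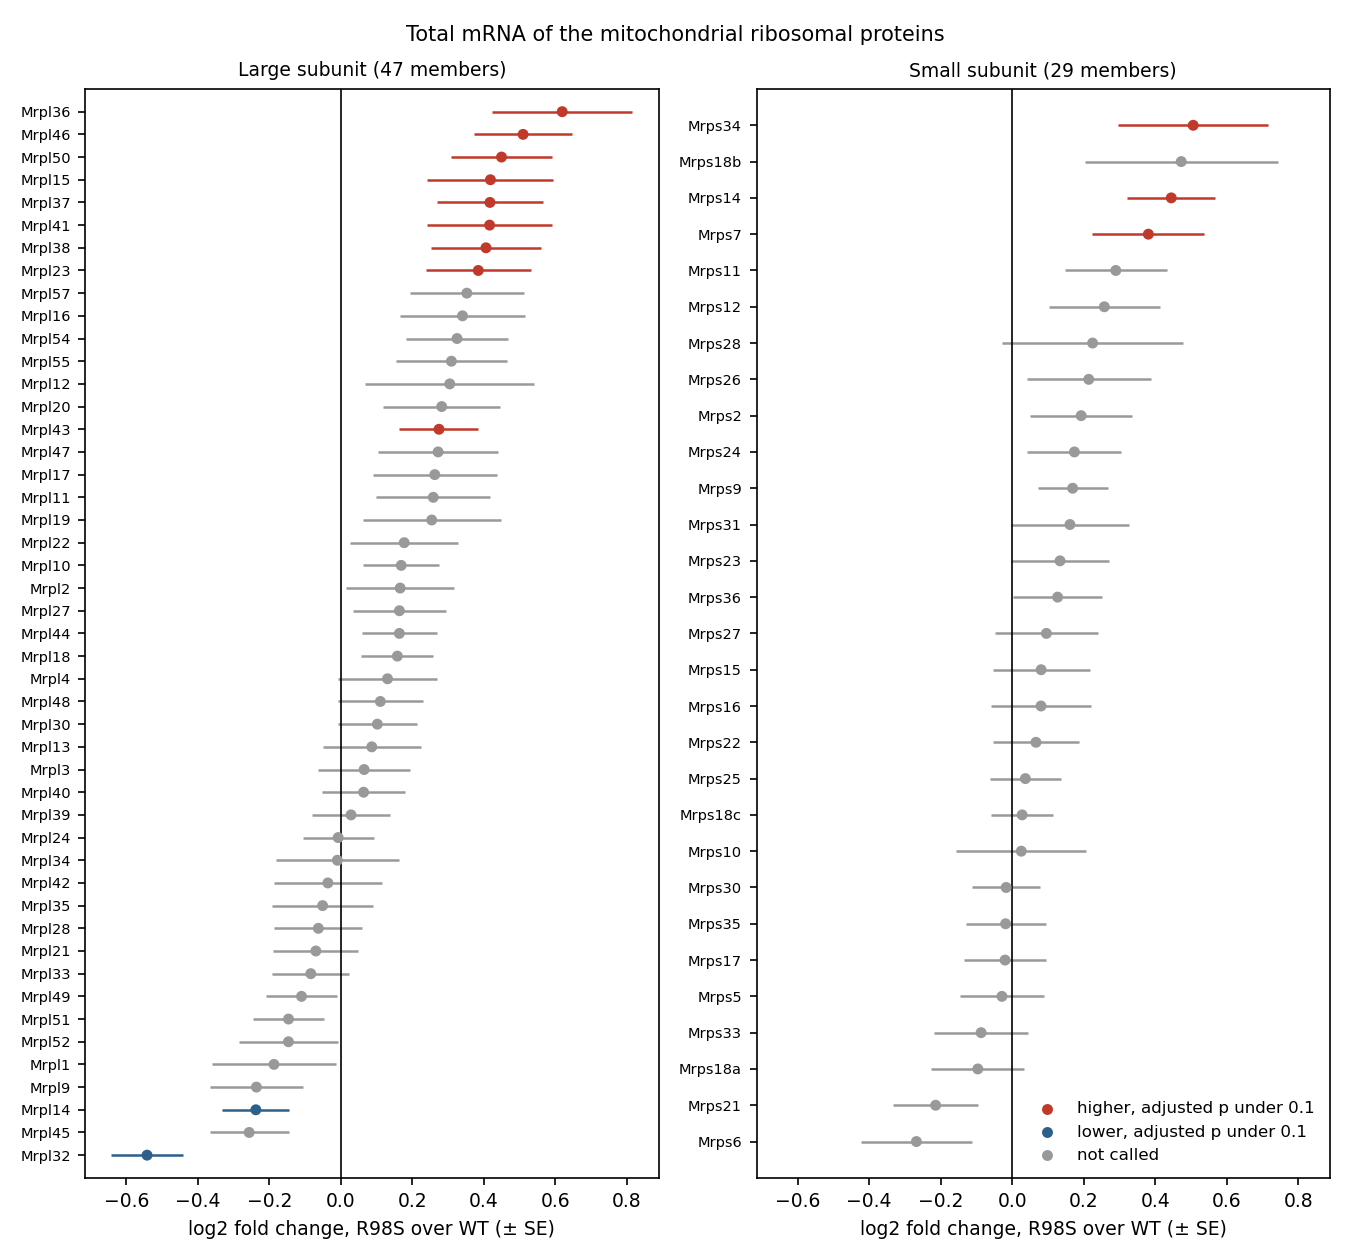
Log2 fold change of every tested member in total mRNA, R98S over WT, with its standard error, in order of size and apart by subunit; colours mark members with an adjusted p under 0.1. The points shift to the right of 0 (53 of 76), and Mrpl36 (0.62) and Mrpl32 (-0.54) are the extremes.

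Mrpl46, which sits in the central protuberance of the large subunit, had the smallest adjusted p among the members that rose. Its R98S libraries ran from 406 over a median of 588 to 668 normalized reads and its WT libraries from 303 over 375 to 578. Of 9 R98S libraries 5 lay above all WT libraries, and the 2 highest WT values came from replicate number 1. Its log2 fold change was 0.51 ± 0.14 (SE, n = 9 and 8; adjusted p = 0.0119), and the call was kept in 25 of 26 alternative fits across replicate numbers, with the exception of the fit without replicate number 3. Mrpl50, a protein particular to mitochondria, ranged from 728 over 1065 to 1194 in R98S and from 493 over 734 to 1037 in WT libraries. Again 5 R98S libraries exceeded every WT library, and the log2 fold change was 0.45 ± 0.14 (adjusted p = 0.0283).

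Mrps14, the counterpart of bacterial S14 in the head of the small subunit, had 600 to 1030 normalized reads in R98S (median 938) and 516 to 776 in WT libraries (median 593). The groups overlapped in 4 R98S libraries, and the log2 fold change was 0.45 ± 0.12 (adjusted p = 0.0144). Mrpl36 had the highest fold change of the 12, 0.62 ± 0.20 (adjusted p = 0.0300), with R98S libraries from 597 to 928 and WT libraries from 331 to 1038. Of 8 WT libraries 5 lay below every R98S library, and of the other 3 WT libraries 1 lay above every R98S library. That top WT library was 1 of replicate number 1, and within that number the difference of Mrpl36 was 0.02, against 0.75 and 0.84 within numbers 2 and 3.

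The other members that rose were mostly close to the threshold. Mrpl37 and Mrpl38, both particular to mitochondria and the latter a neighbour of Mrpl46 in the central protuberance, had log2 fold changes of 0.42 ± 0.15 (adjusted p = 0.0519) and 0.41 ± 0.15 (adjusted p = 0.0635). In the small subunit Mrps7, whose bacterial counterpart starts the assembly of the head, rose by 0.38 ± 0.16 (adjusted p = 0.0873), and Mrps34 by 0.51 ± 0.21 (adjusted p = 0.0894). Of the exon bases of Mrps34, 63.4% lie opposite Mapk8ip3 and 37.0% in another gene of the same strand, and whether the counting used strand is not given in the sources used here. The remaining 4 calls, named here after their values were seen, were Mrpl23 (0.38), Mrpl43 (0.27), Mrpl15 (0.42) and Mrpl41 (0.42). For Mrpl23, 76.4% of 50-base windows also occur in the pseudogene Mrpl23-ps1, and for Mrpl43, 33.4% of exon bases lie opposite Twnk.

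Mrpl32, a large subunit protein that a mitochondrial protease must trim before the ribosome is assembled, had the smallest p of all members and went the other way. Its R98S libraries held 339 to 476 normalized reads (median 382) and its WT libraries 451 to 652 (median 563). Of 9 R98S libraries 8 lay below every WT library. The log2 fold change was -0.54 ± 0.10 (adjusted p = 0.000768), it was called in all 26 alternative fits across replicate numbers, and it was below 0 within each replicate number (-0.54, -0.36 and -0.73). Mrpl14 also fell, by 0.24 ± 0.09 on the log2 scale (adjusted p = 0.0750), with 5 of 9 R98S libraries below all WT libraries. With the replicate number as a block, 16 members rose (18.5% of all genes did) and 5 fell (19.9% of all genes), with Mrpl9, Mrpl45 and Mrps6 added to those that fell.

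**Figure D3:**
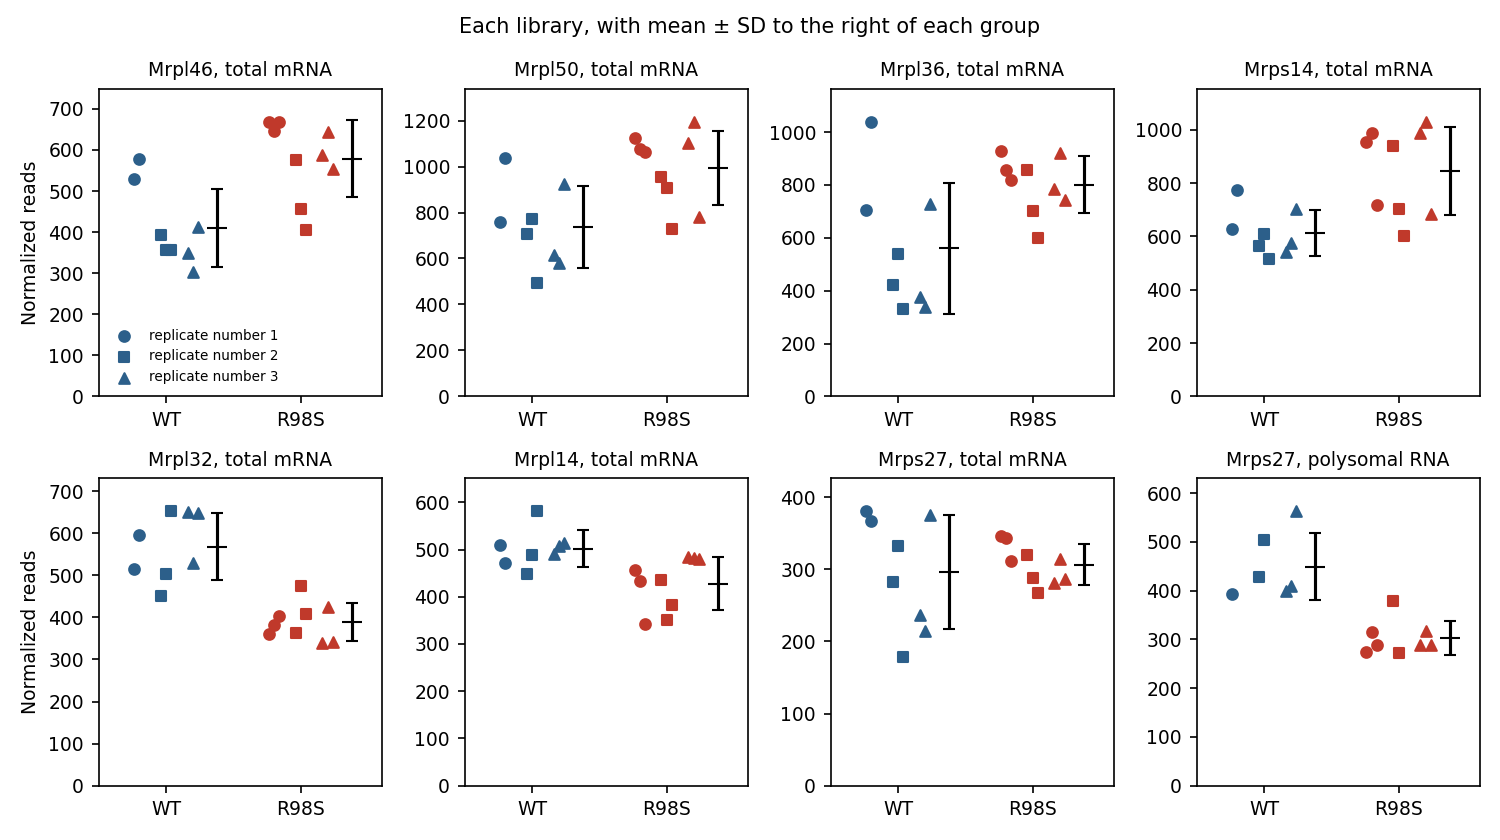
Normalized reads of 6 members in every total mRNA library and of Mrps27 in both fractions, by genotype, with the symbol giving the replicate number and the bar the mean ± SD; axes start at 0. Mrpl32 in total mRNA and Mrps27 in polysomal RNA separate the genotypes in all but 1 and in all R98S libraries, whereas the WT libraries of number 1 reach into the R98S range for Mrpl46, Mrpl50 and Mrpl36.

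The count of members that rose depended on which libraries entered. Leaving out replicate number 1, 2 or 3 gave 13, 4 or 0. Leaving out R98S clone 11, 13 or 35 gave 1, 6 or 14, and WT clone 28, 29 or 36 gave 2, 11 or 6. The count was 4 in the 14 libraries with a polysomal partner. It was 18 without R98S clones 13 and 35 of number 2 and 23 without the library of WT clone 29 of number 1. By limma, 22.4% of members and 35.4% of all genes had an unadjusted p under 0.05 with all libraries. These shares were 6.58% and 23.3% without number 3 and 11.8% and 25.9% without R98S clone 11. Without WT clone 29 of number 1 they were 36.8% and 39.0%. Within number 1, which had 2 WT libraries, 51 of 76 members were lower in R98S cells, while within numbers 2 and 3 58 and 61 of 76 were higher.

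Many members start next to another gene. Of 77 members, 33 (42.9%) had a protein-coding gene on the opposite strand that starts within 1000 bases of their own start, as did 18.4% of 10594 tested protein-coding genes. Mrpl46 and Mrps11 form such a pair, with starts 412 bases apart and overlapping exons, and their log2 fold changes in total mRNA were 0.51 and 0.29 (adjusted p = 0.0119 and 0.151). With the replicate number as a block both were called, at 0.47 and 0.26 (adjusted p = 0.00177 and 0.0784). Of the 14 members called in total mRNA, 9 had such a neighbour that was tested, and for 6 of these the neighbour was called in the same direction. Among the 6 is Mrpl14, with 11.2% of its exon bases opposite its neighbour Tmem63b. The share of such pairs called together over all genes is not given here. Of the 20 other members with a tested neighbour, the neighbour was called for 5, and for 3 of these it moved in the direction of the member. Of all genes 14.5% were called higher and 15.8% lower in this fit. With the block the neighbour was called in the same direction for 8 of 12 called members, and for 4 of 17 others it was called in either direction, where 18.5% and 19.9% of all genes were called. Mrpl46 and Mrps11 are each other's neighbour and count as 2 in these tallies. Psma2, a proteasome subunit, starts 75 bases from Mrpl32 and fell with it (-0.44, adjusted p = 0.00239), and Zfp189 starts 83 bases from Mrpl50 and rose with it (0.35, adjusted p = 0.0570). Ptcd2 starts 81 bases from Mrps27 and was not called (0.30, adjusted p = 0.101), but it was with the block (0.28, adjusted p = 0.0635). These neighbours were named after their values were seen.

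The sequences that separate these 3 pairs, and the bases upstream of Mrps14, are shown to let the short shared promoters be read. They are from RefSeq promoters of GRCm38.p6 (mm10), 5′ to 3′ on the strand of the member and without any annotated exon base, and capitals mark an ETS core (CCGGAAG on either strand).
Mrpl32 (chr13:14613166-14613239, minus strand): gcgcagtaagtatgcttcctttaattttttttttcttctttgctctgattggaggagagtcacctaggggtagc
Mrpl50 (chr4:49521094-49521175, minus strand): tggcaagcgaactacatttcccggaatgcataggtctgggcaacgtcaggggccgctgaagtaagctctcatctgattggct
Mrps27 (chr13:99344706-99344785, plus strand): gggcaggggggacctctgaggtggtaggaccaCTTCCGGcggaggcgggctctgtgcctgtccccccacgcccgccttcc
Mrps14 (chr1:160195115-160195214, plus strand): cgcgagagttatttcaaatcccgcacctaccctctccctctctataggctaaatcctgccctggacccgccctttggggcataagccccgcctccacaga

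Promoter windows from 250 bases before to 50 bases after the start were found for 68 members. On either strand the ETS core CCGGAAG occurred in 36.8% of them (large 33.3%, small 42.3%), against 22.1% of 8243 tested genes with a window. The YY1 core AAGATGG occurred in 19.1% against 8.89%, the NRF1 core GCATGCG in 11.8% against 7.84% and the E-box CACGTG in 7.35% against 11.8%. Among the 9 members with a window that rose in total mRNA, 1 held the ETS core, 3 the YY1 core, 2 the E-box and 0 the NRF1 core. A match is a description of letters and does not show that a factor is bound.

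The second comparison concerns the mRNA found on polysomes. Without the replicate number in the fit, 1 member was called between the genotypes, Mrps27, and it was lower in R98S cells. None of the 76 was higher in that fit, while among 10707 genes tested 7.66% were higher and 5.87% lower. With the number as a block 3 members were higher and 10 lower, against 15.2% and 15.7% of all genes. Without the block, an unadjusted p under 0.05 was reached by 2 members (2.63%) and by 21.7% of all genes. It was reached by 18 members (23.7%, against 35.6%) with the replicate number as a block and by 20 (26.3%, against 29.8%) within number 3. Fits of edgeR and DESeq2 on the recovered reads also called 1 member lower and none higher. The log2 fold changes had a median of -0.22 in the large and -0.19 in the small subunit, against -0.02 over all genes, and 63 of 76 were below 0, with a range from -0.94 to 0.24. The medians of the large and small subunit were -0.0045 and -0.02 without replicate number 3, -0.04 and -0.06 with the number as a block (45 of 76 below 0), -0.06 and -0.10 without WT clone 36, -0.42 and -0.37 without the library of WT clone 29 of number 1, and -0.58 and -0.51 without WT clone 29.

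Mrps27, an RNA-binding protein with pentatricopeptide repeats, had 271 to 378 normalized reads in the 8 R98S polysomal libraries (median 289) and 393 to 563 in the 6 WT libraries (median 419). The groups did not overlap. The log2 fold change was -0.56 ± 0.14 (SE, adjusted p = 0.0154), and the difference was below 0 within each replicate number (-0.42, -0.54 and -0.60). The call held in 22 of 25 alternative fits, being lost without replicate number 1, without R98S clone 35 and with clone means. Of these 25, the fit without R98S clones 13 and 35 of number 2 repeated the main polysomal result and is no separate check. In total mRNA its libraries overlapped (267 to 347 in R98S, 179 to 381 in WT) and its log2 fold change was 0.10 ± 0.15 (adjusted p = 0.677). Of its exon bases 24.2% lie opposite 6430562O15Rik.

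Next in order of p came Mrpl9, Mrpl19 and Mrpl32 in the large and Mrps6 and Mrps35 in the small subunit, and none of these was called. Mrpl32 had 370 to 1955 normalized reads in R98S and 534 to 2961 in WT polysomal libraries, with 5 of 8 R98S libraries below all WT libraries, and a log2 fold change of -0.83 ± 0.54 (adjusted p = 0.423). For Mrps6 these were 120 to 657, 213 to 968 and -0.94 ± 0.46 (adjusted p = 0.257), again with 5 R98S libraries below all WT libraries. The wide ranges were those between replicate numbers, described below. When the replicate number was taken into the fit as a block, 3 members were called higher (3.95%; 15.2% of all genes) and 10 lower (13.16%; 15.7% of all genes). The 10 were Mrps27, Mrpl32 (-0.59, adjusted p = 0.00394), Mrps6 (-0.73, adjusted p = 0.00451), Mrpl9 (-0.54, adjusted p = 0.00894), Mrpl19, Mrpl21, Mrpl42, Mrpl49, Mrps17 and Mrps21, and the 3 were Mrps14, Mrps24 and Mrpl54. Both shares stayed below those of all genes. In that fit Mrpl32, Mrpl9 and Mrps6 were lower and Mrps14 and Mrpl54 higher in both fractions. Of the stretches of 50 bases of Mrps6, 32.2% occur in Gm49711, and 36.0% of the exon bases of Mrpl19 lie opposite Gcfc2.

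The third comparison asks whether members are loaded on polysomes to a different degree for their mRNA level. The polysomal over total ratio of each pair of libraries, on a log2 scale, was used as that measure, and since both tables were scaled separately only its differences between genes or pairs can be read. The WT mean ratios had a median of 0.94 in the large and 0.86 in the small subunit, against -0.32 over all genes and -0.03 for the cytosolic ribosomal proteins, and all 76 were above the value of all genes. Number 3 gave 3 of the 6 WT pairs, and the order was not the same in every pair: in WT clone 29 of number 1 the medians were -0.49 and -0.53, below the -0.32 of all genes. In the large subunit Mrpl41 had the highest mean ratio, 1.71 ± 1.28 (SD, n = 6), followed by Mrpl36 at 1.40 ± 1.47 and Mrpl47 at 1.39 ± 0.95, and in the small subunit Mrps28 at 1.69 ± 1.67, Mrps6 at 1.37 ± 1.06 and Mrps25 at 1.31 ± 0.96. Of the exon bases of Mrpl47, 24.2% lie opposite Ndufb5. The lowest in the large subunit were Mrpl52 at -0.14 ± 1.11, Mrpl54 at -0.13 ± 0.81 and Mrpl57 at -0.05 ± 0.62, and in the small subunit Mrps24 at -0.29 ± 0.50, Mrps5 at 0.26 ± 0.34 and Mrps31 at 0.34 ± 0.36. Neighbours in this order within a subunit differed by less than their SDs over pairs, apart from Mrps24 and Mrps5.

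Between genotypes no member differed in this ratio by limma, and 1 had an unadjusted p under 0.05 (1.32%, against 6.46% of all genes). Among 10627 genes 0.047% were higher and 0% lower. A fit of edgeR with a term for genotype by fraction also called none, with 2 members at an unadjusted p under 0.05 (2.63%, against 5.79% of all genes). By limma 3 members had such a p with the replicate number as a block (3.95%, against 12.1% of all genes). It was 11 without WT clone 29 of number 1 (14.5%, against 15.4%) and 21 without WT clone 29 (27.6%, against 16.2%). The differences, R98S minus WT, had a median of -0.36 in the large and -0.32 in the small subunit (0.01 over all genes), and 72 of 76 were below 0. Those medians were -0.01 and -0.03 without replicate number 3, -0.11 and -0.12 with the replicate number as a block, and -0.78 and -0.74 without WT clone 29. Mrps27 was the member with the smallest p, at -0.61 ± 0.17 (adjusted p = 0.441), with 7 of 8 R98S pairs (-0.34 to 0.39) below all WT pairs (0.10 to 0.93). Mrpl36, Mrpl37 and Mrpl19 in the large and Mrps34 and Mrps5 in the small subunit came next by the rule for naming, with differences of -0.69, -0.42, -0.59, -0.86 and -0.24 and adjusted p from 0.824 to 0.920.

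The replicate numbers differed far more than the genotypes. In replicate number 1 the median ratio of the large subunit was 0.17, -0.11 and 0.15 in R98S clones 11, 13 and 35 and -0.49 in WT clone 29. In number 2 it was 0.25 and 0.30 in R98S clones 13 and 35 and 0.90 and 0.22 in WT clones 28 and 29. In number 3 it was 1.29, 1.54 and 1.33 in R98S clones 11, 13 and 35 and 1.84, 1.94 and 1.71 in WT clones 28, 29 and 36. Every pair of number 3, of either genotype, was thus above every pair of numbers 1 and 2. The small subunit had the same order, from -0.53 to 0.60 in numbers 1 and 2 and from 1.04 to 1.72 in number 3, while the median of all genes stayed between -0.36 and -0.21 in all 14 pairs.

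**Figure D4:**
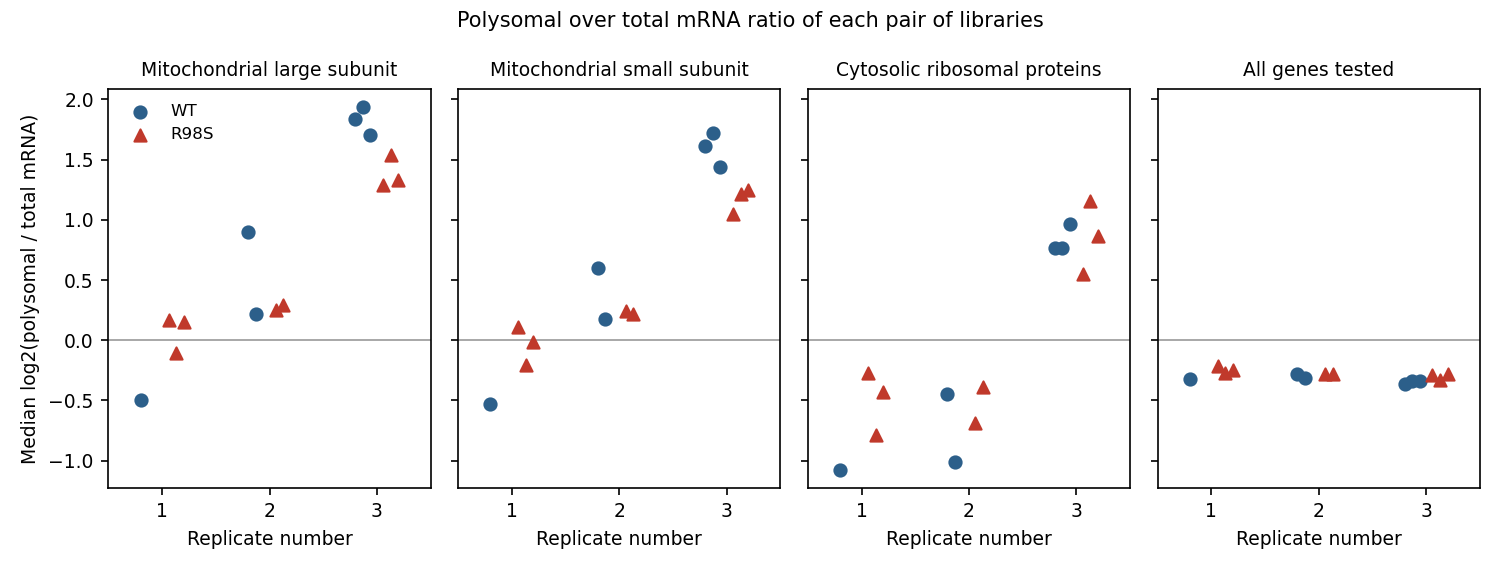
Median log2 ratio of polysomal over total mRNA in each of the 14 library pairs, by replicate number and genotype, for both mitochondrial subunits, the cytosolic ribosomal proteins and all genes tested. The pairs of number 3 stand above the rest for the ribosomal proteins (large subunit 1.29 to 1.94) but not for all genes, and for both mitochondrial subunits R98S lies above WT in number 1 and below it in number 3.

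A contrast of number 3 against numbers 1 and 2, with the genotype as a covariate, was fitted after these ratios had been seen and so describes the pattern. By it 73 of 76 members were higher in number 3 in the ratio and none lower, whereas 30.9% of all genes were higher and 33.3% lower. In polysomal RNA the same count was 73 of 76, against 35.4% of all genes higher and 36.7% lower, with a median log2 difference of 1.38 in the large and 1.36 in the small subunit. In total mRNA 1 member was higher (Mrpl1, 0.56) and 1 lower (Mrps33, -0.35, with 20.98% of its stretches of 50 bases also in Gm5776), against 5.44% and 2.66% of all genes. Members took 0.743% to 0.942% of polysomal reads in number 3 and 0.396% to 0.522% in numbers 1 and 2, and in total mRNA 0.264% to 0.385% and 0.247% to 0.424%. The normalized totals of the polysomal libraries were 16404975 to 18467666 in number 3 and 12382109 to 13546555 in the others, and the part of that scaling in the size of the difference was not tested. Between 13161 and 13956 genes were detected in polysomal libraries of number 3 and between 13728 and 15588 in the others. What distinguished the replicates numbered 3 is not given in the sources used here.

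Mrps18c shows the pattern at its largest. In polysomal RNA it had 433 to 795 normalized reads in R98S and 525 to 729 in WT libraries of numbers 1 and 2, and 2353, 3288 and 2555 in R98S clones 11, 13 and 35 and 3128, 2970 and 2956 in WT clones 28, 29 and 36 of number 3. All 6 libraries of number 3 lay above every other library, and the log2 difference in polysomal RNA was 2.29. In total mRNA Mrps18c was 504 to 733 over all 17 libraries. Mrps28 and Mrpl32 followed in the ratio, with differences of 2.14 and 2.04.

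The 3 members that did not follow were all in the small subunit: Mrps27, Mrps31 and Mrps5, the last being the counterpart of bacterial S5. Their log2 differences in polysomal RNA were 0.00, 0.10 and 0.21 (adjusted p = 0.987, 0.627 and 0.319). In number 3 Mrps27 had 288, 318 and 288 normalized reads in R98S and 399, 410 and 563 in WT polysomal libraries, values within the range of numbers 1 and 2 of the same genotype but for the highest WT library. Mrps27, the member called between genotypes in polysomal RNA without the block, was also the one that moved least there between number 3 and the others. That fit leaves the differences between numbers in its error term, so a member that does not move with the number tends to have a smaller standard error. These observations are therefore not separate. With the number as a block Mrpl32 (-0.59) and Mrps6 (-0.73) were called lower too.

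These 3 encode some of the longest members, with 415, 384 and 432 residues (members range from 65 to 442). Across the 76 members the rise of the ratio in number 3 was smaller for longer proteins (Spearman's rho -0.62), as it was across 10224 protein-coding genes (-0.61), which are not independent replicates and share their libraries. Among genes for proteins of up to 150 residues, 23 of 23 members and 79.0% of 694 other genes were higher in number 3, with median differences of 1.72 and 1.24. For 300 to 450 residues it was 12 of 15 members and 33.96% of 2217 other genes, with medians of 0.91 and 0.12. The classes between them had 17 of 17 and 21 of 21 members higher, beside 69.6% and 56.2% of other genes. The cytosolic ribosomal proteins moved with the members: 74 of 78 were higher in number 3 in the ratio, with a median of 1.45.

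**Figure D5:**
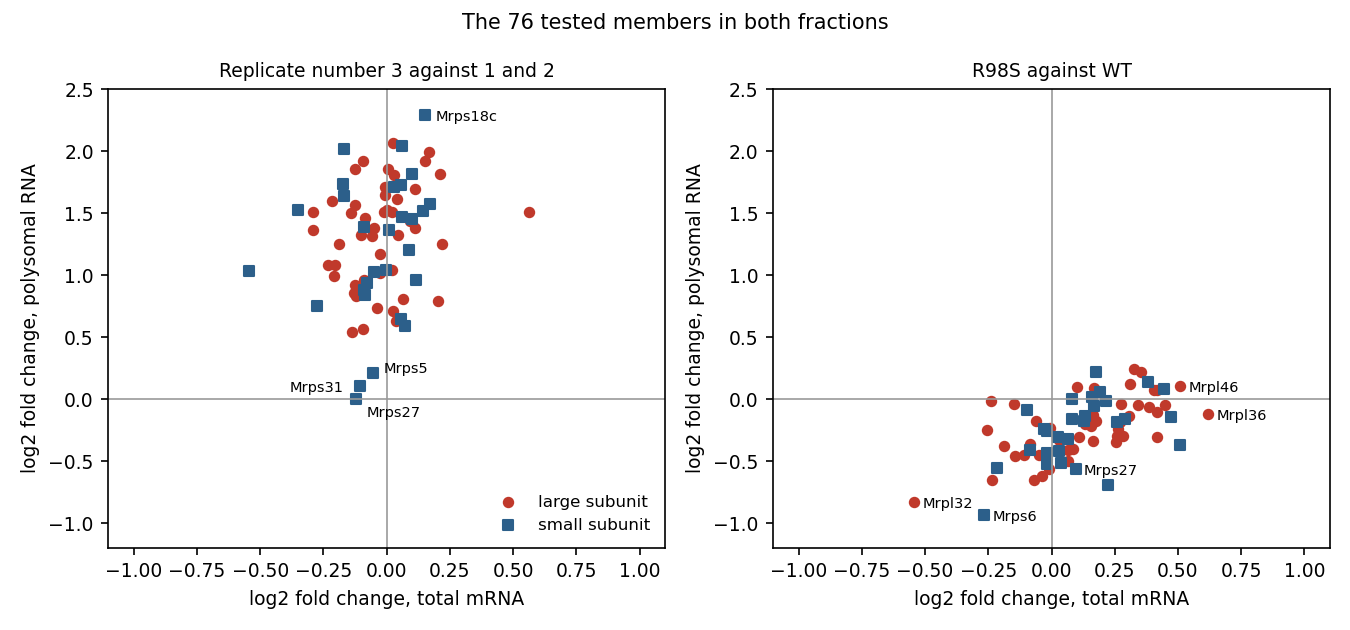
Log2 fold changes of the 76 tested members in total mRNA (x axis) and polysomal RNA (y axis), on the left for replicate number 3 against numbers 1 and 2 and on the right for R98S against WT, on the same axes. On the left the points spread along the polysomal axis up to 2.29 for Mrps18c with Mrps5, Mrps31 and Mrps27 left near 0, whereas on the right they stay between -0.94 and 0.62 on both axes.

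Between pairs of different numbers lay 85.0% of the variance of the ratio in the median member, against 56.0% in the median gene, and between genotypes 5.66% (4.35% in the median gene). The genotypes entered these numbers unequally: number 3 gave 3 of 6 WT and 3 of 8 R98S pairs, and number 1 gave 1 WT and 3 R98S pairs. Within number 1 the ratio was higher in R98S than in WT clone 29 for 72 of 76 members, with a median difference of 0.52. Within number 3, with 3 pairs a genotype, it was lower in R98S for 68 of 76, with a median of -0.38, and no member passed the test there, although 22 had an unadjusted p under 0.05 (28.9%, against 15.04% of all genes). Within number 2 it was lower for 57 of 76. The sign of the genotype difference in the ratio of the members therefore differed between replicate numbers. The median over all genes had the same signs and was smaller, at 0.056, -0.027 and -0.0048 in numbers 1, 2 and 3.

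The other genes of mitochondrial translation were taken from lists and are given by their counts, to be read against the 14.5% of all genes that were higher and the 15.8% that were lower in total mRNA. Of 6 mitoribosomal proteins with other names, Dap3, a GTP-binding protein of the small subunit, was lower in total mRNA (-0.31 ± 0.13, adjusted p = 0.0974) and none was higher. In polysomal RNA Gadd45gip1 was lower (-0.78 ± 0.26, adjusted p = 0.0707). Of 25 tested assembly factors 6 (24%) were higher in total mRNA and none lower, with a median log2 fold change of 0.18. Nsun4, which methylates the RNA of the small subunit, rose from 252 ± 45.3 normalized reads in WT (SD, n = 8) to 406 ± 53.5 in R98S cells (n = 9; adjusted p = 0.000624), and Mtg2, a GTPase of large subunit assembly, from 284 ± 62.4 to 406 ± 51.7 (adjusted p = 0.00587). Fastkd2, an RNA-binding protein needed for the large subunit, rose by 0.70 ± 0.19 on the log2 scale (adjusted p = 0.0129). Nsun4 was also higher in polysomal RNA (0.49, adjusted p = 0.0327) and Rbfa, a factor for small subunit maturation, lower (-0.65, adjusted p = 0.0641).

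Of 17 translation factors and activators 3 (17.6%) were higher in total mRNA (Mtrf1, Taco1 and Tufm) and 1 (5.88%) lower. That 1 was Guf1, the mitochondrial relative of bacterial LepA, at -0.45 ± 0.09 (adjusted p = 0.00241), and it was lower in polysomal RNA too (-0.63, adjusted p = 0.0314). Of 13 genes for the replication, transcription and decay of mitochondrial DNA and RNA, Polg and Tefm were higher and Mterf1a lower. None of these lists had a called gene in the ratio.

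Of the 13 mRNAs that mitochondrial ribosomes translate, 11 passed the filter in total mRNA and all 11 had a log2 fold change above 0. By the test 4 (36.4%) were higher (mt-Cytb, mt-Nd4, mt-Nd6 and mt-Nd2) and the median log2 fold change was 0.38. mt-Cytb had 50666 ± 9352 normalized reads in R98S and 37037 ± 9056 in WT libraries (adjusted p = 0.0234). In polysomal RNA 9 passed the filter and none was called, with a median of 0.53. Since mitochondrial ribosomes translate these mRNAs, their values in this fraction do not measure loading on cytosolic polysomes. mt-Nd4l and mt-Co3 did not pass in total mRNA, at no more than 0.727 and 14.4 normalized reads in any library. mt-Nd3, mt-Co2 and mt-Atp6 are among the 11 but were low, with at most 39.2, 24.5 and 40.5. The mitochondrially encoded genes were not examined for sequence shared with other places in the genome, where reads can be lost to the mapping quality filter. These low values therefore do not show how far the genes are expressed. The cytosolic ribosomal proteins had 6 members higher and 4 lower of 78 in total mRNA, with a median of -0.04, and without the replicate number in the fit none was called in polysomal RNA or in the ratio.

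The replicate number as a block changed the counts of several of these lists. In total mRNA 7 of 11 mitochondrially encoded mRNAs were then higher (63.6%, against 18.5% of all genes). Of 78 cytosolic ribosomal proteins 7 were higher and 7 lower (8.97% each, against 18.5% and 19.9%). Of the assembly factors 8 were higher and 1 lower. In polysomal RNA, where 15.2% of all genes were higher and 15.7% lower with the block, 16 of 78 cytosolic ribosomal proteins were higher (20.5%) and none lower, and 3 of 9 mitochondrially encoded mRNAs were higher and none lower. Of the 6 mitoribosomal proteins with other names 1 was higher and 3 were lower, of 25 assembly factors 2 and 4, of 16 translation factors and activators 2 and 3, and of the 13 genes of mitochondrial DNA and RNA 1 and 2. In the ratio the block called none of these lists' genes.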

How the data were processed

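Reads of total mRNA and polysomal RNA libraries (TruSeq Stranded mRNA) had their leading base removed with seqtk, were cleared of rRNA and tRNA with Bowtie2 and aligned to mm10 with TopHat2 2.0.11, and the authors kept primary alignments of mapping quality 10 or more and counted reads over exons. HTSeq is named in the submitters' processing notes; the annotation and the use of strand are not given in the sources used here. The deposited values are a normalized signal: read counts divided by DESeq2 size factors, in 1 table per fraction, scaled separately. All values were whole multiples of a step for each library (100% at a relative tolerance of 1e-06), so reads were recovered by division.

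From these values log2(value + 1) was tested with limma 3.58.1 (trend) where a gene averaged 10 or more, with Benjamini-Hochberg adjustment over all genes and a threshold of 0.1, a fold change being on that log2 scale. The ratio was the log2 polysomal minus the log2 total value of a pair of libraries of the same clone and number. The members and lists were chosen with earlier results of these data known. Genes were named by a rule: up to 5 called members per subunit and direction by p, otherwise the 3 with the smallest p; the 3 highest and lowest in level per length and in WT ratio; Mrpl12 and the Mrps18 paralogues; and up to 5 of each list. Positions, lengths and overlaps came from GENCODE M21 (GRCm38), promoters from RefSeq.

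The replicate numbers pair the libraries: deviations from group means correlated between genotypes of the same number (across genes, r = 0.62, 0.55 and 0.48 for total mRNA; 0.70, 0.67 and 0.87 for polysomal RNA; 0.67, 0.54 and 0.81 for the ratio). The block on the number was an alternative, as were GC and length corrections, TMM and quantile scaling, pseudocounts of 0.5 and 10, other filters, single clones or numbers left out, clone means, edgeR 4.0.16 and DESeq2 1.42.0. The limma fit was tested on simulated data.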

Additional observations from a re-analysis of the deposited data

Results flagged for a closer look

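The difference between the genotypes in the polysomal over total ratio pointed in opposite directions in 2 replicate numbers. In number 1 the median ratio of the large subunit was higher by 0.56 in R98S pairs, and that of the small subunit by 0.50 (3 R98S pairs and 1 WT pair, every R98S pair above it). In number 3 the same differences were -0.44 and -0.42 (3 pairs a genotype, every R98S pair below every WT pair). The difference between the numbers was not tested, since number 1 holds 1 WT pair. Among 56 groups of 6 to 9 values examined for a single library far from the others, none held one.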

How the results depend on the processing

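Against 12 members called higher in total mRNA, the count was 6 without a filter on low values, 4 among libraries with a polysomal partner, 23 without WT clone 29 of number 1, and 0, 0 and 2 within replicate numbers 1, 2 and 3; leaving out 1 number or clone gave 0 to 14. The counts called lower, against 2, were 5 with the replicate block and 4 with a length correction. With the block and a GC or length correction they were 5 and 6. The count was 1 without the filter, with clone means or among partnered libraries. Within numbers 1, 2 and 3 the counts were 3, 0 and 1, and leaving out 1 number or clone gave 1 to 3. In polysomal RNA, against 0 higher and 1 lower, they were 3 and 10 with the replicate block, 2 and 12 with block and GC correction, 3 and 11 with block and length correction, 0 and 7 with a length correction, 0 lower with clone means, 2 lower without WT clone 29 of number 1, 0 lower within number 2, and 1 and 13 within number 3; leaving out 1 number or clone gave 0 to 2 lower. In the ratio 1 member was lower with block and GC correction, with block and length correction, and without WT clone 29 of number 1. The median of total mRNA turned to -0.069 (large) and -0.13 (small) within number 1, and Mrps34 to -0.074 there. Mrps5 in the ratio ran from -0.35 to 0.038 when a number or clone was left out. The cause was not tested. The replicate block ended no call. Among the 11 named results that were called, 232 of 316 alternative values kept the call and 83 lost it. Scaling by TMM or quantiles, other pseudocounts, edgeR and DESeq2 changed these counts by no more than 1. Mrpl53 cannot be judged, since its sequence is shared with Gm42688.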
